A study of Mus musculus with 6 samples.

Results

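The miR-199 and miR-214 miRNAs were taken as all mouse miRNAs on the array whose names start with miR-199a, miR-199b or miR-214, both arms of each hairpin included. This gave 5 of the 566 mouse miRNAs, measured by 12 of the 1712 miRNA probes. They are mmu-miR-199a-3p and mmu-miR-199a-5p, mmu-miR-199b-5p, and the arms mmu-miR-214-3p and mmu-miR-214-5p, named below without the mouse prefix. They were followed in LLC1 cells, an established line of mouse Lewis lung carcinoma. Cells were grown for 48 h either as a 2D monolayer on plastic (the control) or embedded at 0.5 mg/ml in Geltrex, a laminin rich extracellular matrix, above agarose (lr-ECM 3D). Both conditions shared the same serum-containing DMEM medium. Each had 3 arrays labelled as cell culture replicates, which the methods call independent. Each array was hybridised with Cy3-labelled total RNA of a whole culture, so fewer cells carrying a miRNA and less of it per cell cannot be told apart.

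MiRNAs are short RNAs cut from either arm (5p or 3p) of a hairpin precursor, and they repress messenger RNAs that pair with their seed, bases 2 to 8. MiR-199a and miR-214 are known from mesenchymal cells, where a noncoding host RNA, Dnm3os, yields miR-199a-2 and miR-214 together under the control of the transcription factor TWIST1. Known targets include the kinase gene Mtor and the receptor gene Met for miR-199a-3p and the hypoxia factor gene Hif1a for miR-199a-5p. These genes bear on growth and invasion of tumour cells.

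The 4 precursors are shown because they set which signals can be assigned to a locus. They are RefSeq sequences of assembly GRCm38.p6, written 5′ to 3′, with the mature arms that the table lists in capitals. Mir199a-2 lies at chr1:162217814-162217923 (+) and Mir214 at chr1:162223368-162223477 (+), 5444 bases apart and both within the bounds of Dnm3os and of the dynamin gene Dnm3. Mir199a-1 lies at chr9:21496495-21496564 (-) within the bounds of Dnm2, and Mir199b at chr2:32318460-32318569 (+) within the bounds of Dnm1. Dynamins are the GTPases that pinch off membrane vesicles.
Mir199a-2: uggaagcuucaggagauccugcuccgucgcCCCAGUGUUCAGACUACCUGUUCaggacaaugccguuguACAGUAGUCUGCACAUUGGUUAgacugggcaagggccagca
Mir214: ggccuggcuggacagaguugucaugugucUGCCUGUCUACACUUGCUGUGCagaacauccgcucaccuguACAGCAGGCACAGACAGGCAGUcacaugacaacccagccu
Mir199a-1: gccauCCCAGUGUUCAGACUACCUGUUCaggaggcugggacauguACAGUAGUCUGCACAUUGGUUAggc
Mir199b: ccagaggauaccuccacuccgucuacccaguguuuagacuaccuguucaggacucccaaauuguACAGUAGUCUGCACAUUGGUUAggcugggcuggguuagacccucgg

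The mature sequences are shown with the seed in capitals, since the seed sets what a miRNA can pair with. A mature sequence was found for 4 of the 5 members, all but miR-199b-5p. MiR-761 is added because it has the same seed as miR-214-3p.
miR-199a-3p: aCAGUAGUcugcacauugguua
miR-199a-5p: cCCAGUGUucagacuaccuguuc
miR-214-3p: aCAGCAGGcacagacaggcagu
miR-761: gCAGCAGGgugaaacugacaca
miR-214-5p: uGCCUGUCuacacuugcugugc

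Searched among 1005 mouse hairpins of the table, the miR-199a-3p sequence occurred in 3, those of Mir199a-1, Mir199a-2 and Mir199b, where RefSeq names it miR-199b-3p. The miR-199a-3p signal therefore sums over 3 loci. The miR-199a-5p sequence occurred in 2 hairpins, Mir199a-1 and Mir199a-2, while miR-214-3p and miR-214-5p each occurred in 1. Among the members, then, the miR-214 arms report on the Dnm3os locus alone and miR-199b-5p is the arm named for the Mir199b locus.

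Values below are log2 signals, after each array was scaled to a common mean over all miRNA probes and floored so that 0 is the lowest value. The arrays differed in brightness before this scaling. The mean raw signal ran from 5.03 linear units on 2D replicate 2 to 40.4 on 2D replicate 3, and from 37.8 to 49.9 on the lr-ECM 3D arrays. The 2D and the lr-ECM 3D arrays lay on separate slides, and each group had 1 scan day. Whether both groups were scanned on the same day was not checked. An effect of the slide or of its scan would thus look like an effect of the culture in every comparison. Detection of a probe, called well above background, required the scanner's flag on at least 50% of its spots. Signals of different probes depend on the probe, so levels were not ranked between miRNAs.

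MiR-199a-3p, miR-199a-5p, miR-199b-5p and miR-214-3p were well above background on all 6 arrays, which 48 of the 566 mouse miRNAs were. They were so even on 2D replicate 2, where only those 48 mouse miRNAs were detected. MiR-214-5p was well above background on 1 array. In LLC1 cells of both cultures, then, every member but the 5p arm of miR-214 was detected on every array. After scaling, the lr-ECM 3D mean of each of the 4 was 0.36 to 0.51 log2 units below the 2D mean, but 0 of the 4 passed the test, and the sign of the change turned under some of the other scalings given further on. The groups of arrays did not overlap for any of the 4, which was also so, in the same direction, for 22.5% of the 120 tested miRNAs and 37.5% of the 48 detected everywhere.

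The log2 signal of miR-199a-3p, the arm shared by 3 loci, was 8.74, 9.67 and 9.04 in the 2D cultures, in the order of replicates 1 to 3, while lr-ECM 3D gave 8.54, 8.73 and 8.67. The groups did not overlap, but the lowest 2D value and the highest lr-ECM 3D value were nearly equal, and 2D replicate 2 stood above the rest. The 2D mean was 9.15 ± 0.47 (SD, n = 3), against 8.65 ± 0.09 (SD, n = 3) for lr-ECM 3D. The change of -0.51 (SE 0.26) set the lr-ECM 3D level at 70.5% of the 2D level, and limma gave an adjusted p of 0.276.

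MiR-199a-5p, the opposite arm of the miR-199a hairpins, had log2 signals of 7.86, 8.34 and 7.79 in 2D, in replicate order, compared with 7.57, 7.71 and 7.58 in lr-ECM 3D. The groups did not overlap, and the highest array was again 2D replicate 2. From a 2D mean of 8.0 ± 0.30 (SD, n = 3) to an lr-ECM 3D mean of 7.62 ± 0.08 (SD, n = 3), the change was -0.38 (SE 0.18, limma adjusted p 0.26), or 76.9% of the 2D level.

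MiR-199b-5p, from the locus inside Dnm1, gave 7.63, 8.27 and 7.90 in 2D, and lr-ECM 3D values of 7.39, 7.60 and 7.50, again as log2 signals. Between the lowest 2D array and the highest lr-ECM 3D array there was a gap smaller than the spread within either group. In 2D it averaged 7.93 ± 0.32 (SD, n = 3), compared with 7.50 ± 0.10 (SD, n = 3) for the lr-ECM 3D arrays, a change of -0.44 (SE 0.19, limma adjusted p 0.242) and 73.9% of the 2D level.

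MiR-214-3p, the main arm of the hairpin next to Mir199a-2, stood at log2 signals of 7.01, 7.32 and 7.09 in 2D, whereas lr-ECM 3D replicates gave 6.71, 6.85 and 6.79. All 3 lr-ECM 3D values lay below all 2D values, and the 2D arrays were closer to each other than for the miR-199 arms. The 2D arrays averaged 7.14 ± 0.16 (SD, n = 3) and the lr-ECM 3D arrays 6.78 ± 0.07 (SD, n = 3). Its change of -0.36 (SE 0.13), or 78.1% of the 2D level, had in limma an unadjusted p of 0.0411 and an adjusted one of 0.19.

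**Figure D1:**
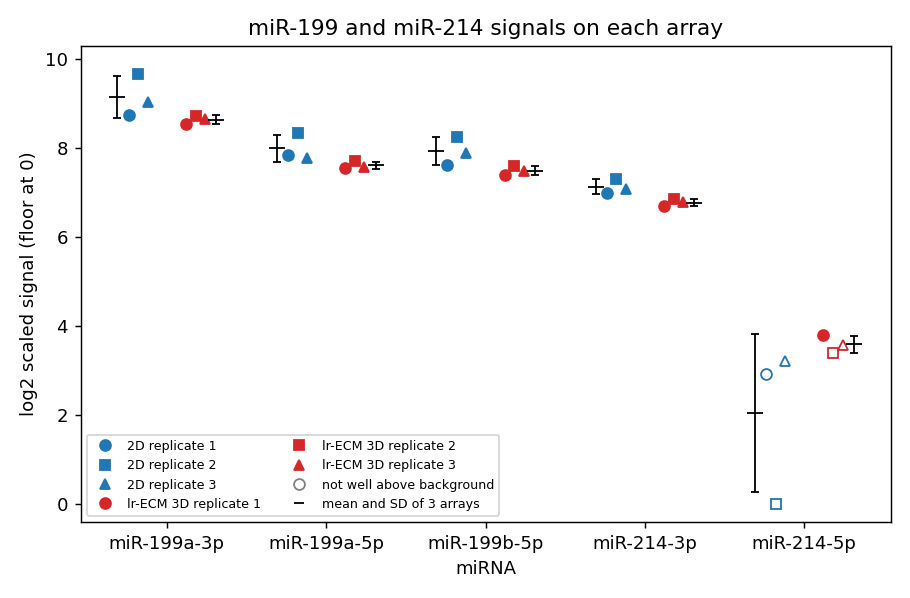
Log2 scaled signal of the 5 miRNAs (vertical axis) on each of the 6 arrays, blue for 2D and red for lr-ECM 3D, with the replicate given by the marker shape, open markers where the probe was not well above background, and black bars for the mean and SD of 3 arrays. The 4 detected miRNAs sit slightly lower on the lr-ECM 3D arrays, with 2D replicate 2 highest for each, while miR-214-5p stays between 0 and 3.80.

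The changes of the 4 members lay within the range of the 48 miRNAs detected everywhere. By limma 0 of the 4 tested members were called, at an adjusted p under 0.05 and a fold of at least 2. Of the 120 tested miRNAs 11.7% were called (14, with 13 or 10.8% higher and 1 or 0.833% lower in lr-ECM 3D). The 13 called higher all went undetected in 2D, and miR-21a-3p, called lower, passed detection on only 1 array there. A fit limited to the 48 miRNAs detected everywhere called 0. The absence of calls therefore does not set the members apart from miRNAs detected as they were. At an unadjusted p under 0.05, 1 member (miR-214-3p) was lower, where 6.67% of the tested miRNAs were, and by the methods' t-test after adjustment 0 members were called. Groups without overlap and higher in lr-ECM 3D were found for 0 members, 20% of the tested miRNAs and 0 of those 48. A change below 0 was found for 63.3% of the tested miRNAs and for 95.8% of the 48. The median change was -0.41 over the 4 members, -0.27 over the 48 and -0.11 over all 120, so the members lay 0.08 to 0.23 log2 units below the median of the miRNAs detected everywhere. Ordered from the most negative change among those 48, miR-199a-3p was at place 8, miR-199b-5p at 13, miR-199a-5p at 16 and miR-214-3p at 18.

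**Figure D2:**
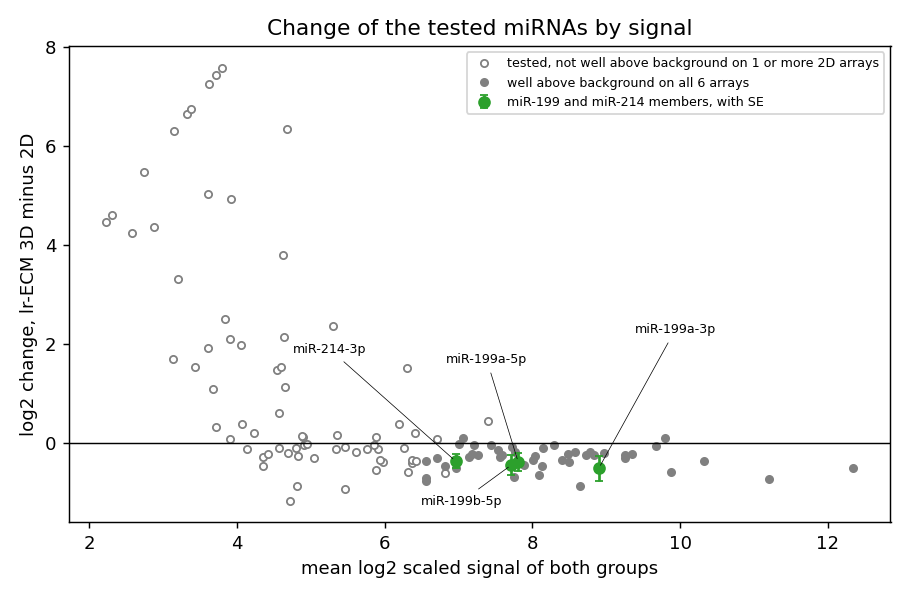
Log2 change from 2D to lr-ECM 3D (vertical axis) against mean log2 scaled signal (horizontal axis) for the 120 tested miRNAs, with filled grey points for those well above background on all 6 arrays, open points for the rest and green points with SE for the 4 members. The members lie inside the band of the filled points, which runs from -0.86 to 0.11.

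Raw signals, before scaling, followed the brightness of the arrays. In linear units, the raw signal of miR-199a-3p was 412, 184 and 953 in the 2D replicates, compared with 834, 736 and 692 in lr-ECM 3D. MiR-214-3p gave raw signals of 124, 36.1 and 246, compared with 234, 201 and 188. In both cases the dim 2D replicate 2 was lowest and 2D replicate 3, whose mean brightness of 40.4 lies between the 37.8 and 49.9 of the lr-ECM 3D arrays, was highest. On that array 3 of the 4 members were brighter, before scaling, than on every lr-ECM 3D array; the exception was miR-199a-5p, at 402 against 425, 363 and 326.

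Array brightness and the members did not move in strict proportion. The mean raw signal was 8.03 times as high on 2D replicate 3 as on 2D replicate 2, whereas the ratio was 5.19 for miR-199a-3p, 5.50 for miR-199a-5p, 6.24 for miR-199b-5p and 6.83 for miR-214-3p. Scaling 2D replicate 2 by the mean therefore placed the members highest on that array. Without it the changes were -0.25 for miR-199a-3p, -0.21 for miR-199a-5p, -0.27 for miR-199b-5p and -0.26 for miR-214-3p, with adjusted p of 0.106 to 0.19 in limma.

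**Figure D3:**
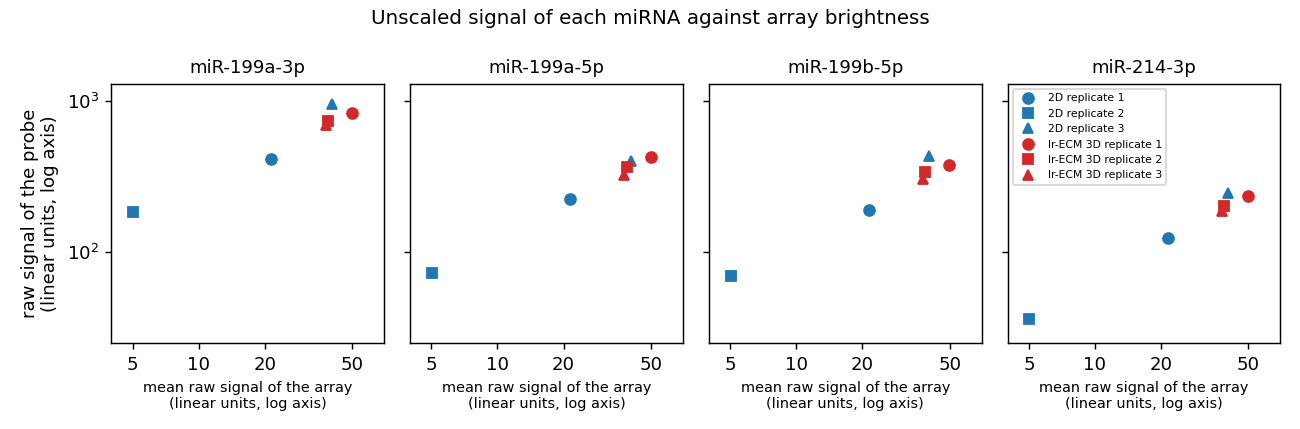
Unscaled signal of each of the 4 detected miRNAs (vertical, linear units on a log axis) against the mean raw signal of the array (horizontal, log axis), 1 point per array, blue for 2D and red for lr-ECM 3D. In every panel 2D replicate 2 is at the lower left, and 2D replicate 3 lies among the lr-ECM 3D arrays on the brightness axis.

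The direction of the change depended on how arrays were brought to a common scale. With no scaling the 4 changes were 0.85 to 1.00, with the authors' deposited log2 values 0.34 to 0.50, and with another background correction (normexp with an offset of 50) 0.26 to 0.42, all higher in lr-ECM 3D and 0 of them past the test. The offset of 50 linear units was added to each spot before scaling and is above the mean raw signal of 5.03 on 2D replicate 2. Its effect apart from the background correction was not tested. With the median of the 48 miRNAs detected everywhere as the common scale, a setting chosen after seeing the data, the changes were -0.16 for miR-199a-3p, -0.09 for miR-199b-5p, -0.03 for miR-199a-5p and -0.01 for miR-214-3p, and 0 of the 4 pairs of groups stayed free of overlap. The median change of all 120 tested miRNAs moved along with the scaling, from -0.11 as reported to 1.24 with no scaling. Relative to the median of the 48, which include the 4 members, the median of the members was -0.10 to -0.17 in all settings tried. Multiplying an array by a constant shifts the members and the 48 alike. This difference therefore cannot change between such scalings (-0.13 both as reported and with no scaling), and it is no check of the direction.

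**Figure D4:**
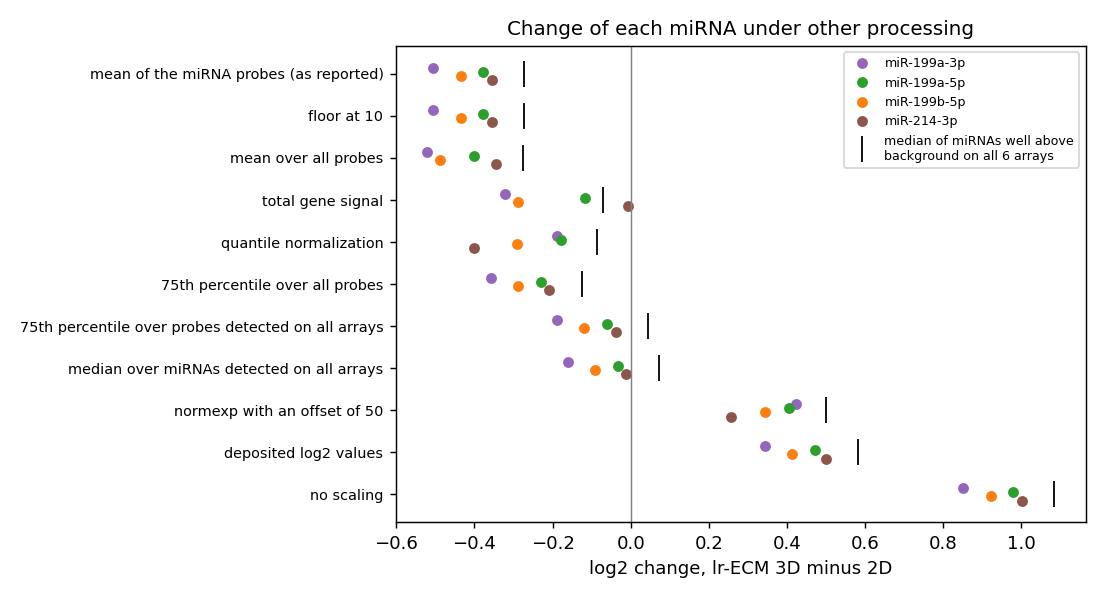
Log2 change from 2D to lr-ECM 3D (horizontal axis) of the 4 detected miRNAs, 1 coloured point each, under 11 ways of scaling or summarising the arrays (rows), with a black tick for the median of the 48 miRNAs detected everywhere. The points move with the tick, as rescaling an array shifts both alike, and lie to its left, except miR-214-3p with total gene signal.

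Ratios of a pair of members within an array do not depend on the scaling factor of that array, so they were used to compare arms and loci. They compare culture conditions for a pair of probes and do not give the relative abundance of the miRNAs. The log2 ratio of miR-199a-3p to miR-199a-5p, the arms of the same hairpins, was 0.88, 1.33 and 1.25 in 2D, in replicate order, compared with 0.97, 1.02 and 1.09 in lr-ECM 3D. The lr-ECM 3D values lay inside the range of the 2D values. The difference was -0.13, over the 9 pairs of arrays from -0.36 to 0.20, with an exact two-sided permutation p of 0.4.

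MiR-199a-5p and miR-214-3p share the Dnm3os locus in part, since miR-199a-5p also comes from Mir199a-1. Their log2 ratio was 0.85, 1.02 and 0.71 in 2D, against 0.86, 0.86 and 0.80 in lr-ECM 3D, a difference of -0.02 that ran from -0.22 to 0.15 over the pairs of arrays, with an exact p of 0.9. Between loci, the log2 ratio of miR-199a-5p to miR-199b-5p was 0.23, 0.07 and -0.11 in 2D and 0.17, 0.11 and 0.08 in lr-ECM 3D. This difference was 0.06, from -0.14 to 0.28, with an exact p of 0.7. Again the lr-ECM 3D arrays fell within the range of the 2D arrays. The Mir199b hairpin printed above holds a stretch nearly identical to miR-199a-5p. Whether the probes of miR-199a-5p and miR-199b-5p tell these sequences apart was not tested, so this ratio may not compare loci.

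All 6 pairs among the 4 members were compared. The differences ran from -0.15 (miR-199a-3p to miR-214-3p) to 0.06, the exact p-values from 0.4 to 0.9, and every p adjusted over the 6 pairs was 0.9. The smallest p that 3 arrays against 3 allow is 0.1. The sign of some of these differences turned with normexp and its offset of 50, with quantile normalization and without 2D replicate 2. Over the pairs of arrays the most extreme difference of any ratio was -0.51, for miR-199a-3p to miR-214-3p. Since the miR-199a arms each sum over several loci, these ratios do not isolate a locus, and none was formed with miR-214-5p. The spread was larger in 2D, with an SD of 0.16 to 0.31 for the 6 ratios in 2D against 0.02 to 0.06 in lr-ECM 3D.

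**Figure D5:**
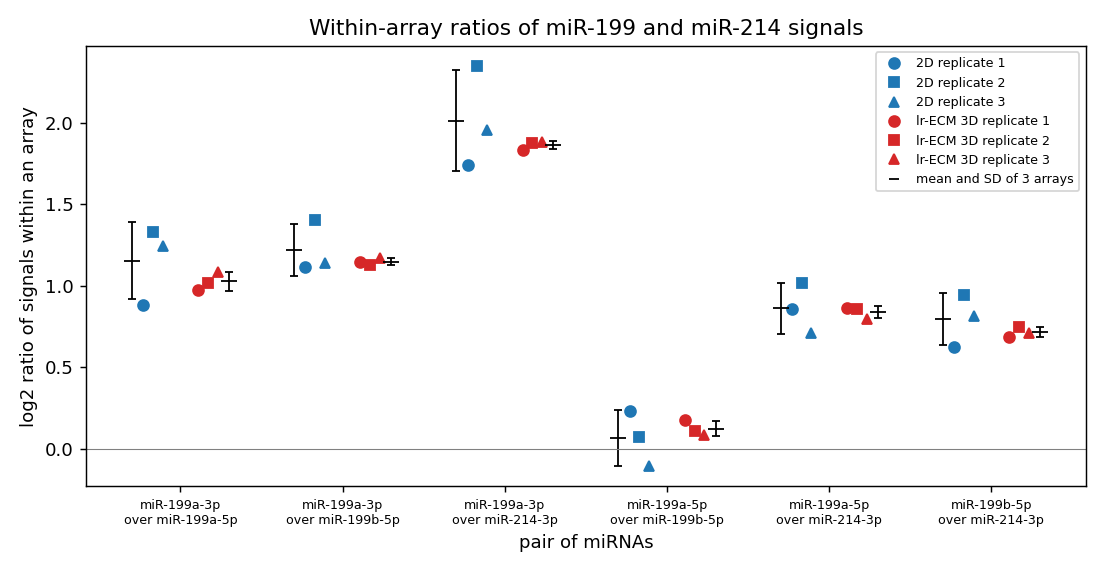
Log2 ratio of the signals of a pair of miRNAs within an array (vertical axis) for the 6 pairs of detected members, blue for 2D, red for lr-ECM 3D, with black bars for the mean and SD of 3 arrays. For each pair all 3 lr-ECM 3D points fall inside the range of the 2D points.

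Each of the 4 detected members had a further, dimmer probe, which shares the scaling of the array and is no independent check of direction. The change of the second probe, given as a description, was -0.54 for miR-199a-3p (A_54_P2380), -0.53 for miR-199a-5p (A_54_P2378), -0.61 for miR-199b-5p (A_54_P3538) and -0.31 for miR-214-3p (A_54_P2619). All 4 had the sign of the brighter probe without overlap of the groups, under the scaling that gave 95.8% of the 48 miRNAs detected everywhere a change below 0 and 37.5% lower groups without overlap. Those of miR-199a-5p and miR-214-3p were not well above background on 2D replicate 2, so their 2D means include a signal under the limit. Over the spots of a detected probe on an array the coefficient of variation had a median of 8.68%, from 2.71% to 37.6%.

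MiR-214-5p, the opposite arm of miR-214, stayed at the limit of detection. The brightest of its 4 probes (A_54_P3523) read 2.93, 0 and 3.22 on the log2 scale in 2D, against 3.80, 3.39 and 3.59 in lr-ECM 3D. It was well above background on lr-ECM 3D replicate 1, with 4 of 5 spots flagged, while lr-ECM 3D replicate 3 had 2 of 5 and the other arrays had 0. Its other 3 probes reached that level on 0 arrays. The lr-ECM 3D signals lay above the 2D signals, but all of the latter were below the limit of their arrays, and the lr-ECM 3D mean of 3.59 was itself under the mean 2D limit of 5.26. No fold is given for this reason, and the miRNA did not enter the test. The arms of miR-214 thus differed in detection, with 6 arrays for 3p and 1 for 5p, while both listed arms of the miR-199a hairpins were detected on 6.

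MiR-761, which has the seed of miR-214-3p, was likewise near background. Its log2 signal was 0 on all 2D arrays and 3.55, 2.69 and 3.34 in lr-ECM 3D, and it was well above background on the first of these. The mean of 3.19 ± 0.45 (SD, n = 3) in lr-ECM 3D was below the 2D limit of 5.26, so no fold is given.

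To name the miRNAs whose pattern over the 6 arrays was most like that of each member, Pearson correlations of log2 scaled signals were ranked over the 116 other tested miRNAs. They are descriptive, since the 6 arrays share a scaling and 2 slides, and 2D replicate 2 weighs heavily. MiR-199a-3p was most like miR-221-3p (0.991), miR-21a-5p (0.991) and miR-130a-3p (0.986). MiR-199a-5p was most like miR-193a-3p (0.989), miR-17-3p (0.986) and miR-23b-3p (0.981), and miR-199b-5p most like miR-322-5p (0.998), miR-101b-3p (0.990) and miR-106b-5p (0.988). For miR-214-3p they were miR-101b-3p (0.983), miR-21a-3p (0.978) and miR-27b-3p (0.975). Of the miRNAs named, miR-17-3p, miR-101b-3p, miR-21a-3p and miR-27b-3p were not well above background on every 2D array, so their likeness rests in part on signal under the limit. The members correlated with each other at 0.933 to 0.987. Their median with the other tested miRNAs was 0.386 to 0.455, but 72 of the tested miRNAs were not well above background on every array. The miRNAs named above reached 0.975 to 0.998 with a member, so a high correlation was not particular to the members. Without 2D replicate 2 the range between members was 0.669 to 0.994, lowest for miR-199a-3p with miR-199a-5p.

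The mesenchymal setting of these miRNAs was examined with lists of miRNAs typical of cell types. Of 12 other miRNAs common in fibroblasts and mesenchymal cells, 3 were well above background on all 6 arrays, 3 on 0 arrays, and 8 were tested. Of these 8, 0 were called in either direction by limma. A change below 0 was found for 7 of the 8, beside 63.3% of all tested miRNAs and 95.8% of the 48 detected everywhere. The exception, higher in lr-ECM 3D, was miR-22-3p (limma adjusted p 0.405). It was well above background on 2 of the 2D and 3 of the lr-ECM 3D arrays, so no fold is given. Over the 8 the median change was -0.37, beside -0.41 for the members, -0.27 for the 48 miRNAs detected everywhere and -0.11 for all tested miRNAs. MiR-140-3p, a cartilage miRNA, was well above background on 1 of the 2D and 3 of the lr-ECM 3D arrays, so no fold is given, and its change was under the fold limit (limma adjusted p 0.0457). The 3 detected everywhere were miR-125b-5p, with a change of -0.36, miR-130a-3p, with -0.38, and miR-221-3p, with -0.68. MiR-143-3p, a miRNA of smooth muscle and fibroblasts, was well above background on 1 array of each condition, and its partner miR-145a-5p on 0. The summed linear signal of this list was 2223 to 3269 in 2D and 1892 to 2067 in lr-ECM 3D. Part of the mesenchymal list was thus detected in LLC1 cells and part was not.

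Of 11 epithelial miRNAs, 9 were well above background on 0 arrays, among them miR-200a-3p, miR-200b-3p, miR-200c-3p, miR-141-3p and miR-205-5p, which hold epithelial cells in that state. The summed linear signal of this list was 39.9 to 104 on the 2D arrays and 63.4 to 67.7 on the lr-ECM 3D arrays. The other 2 of the list were tested and 0 were called. MiR-96-5p was well above background on 1 of the 2D and 3 of the lr-ECM 3D arrays (limma adjusted p 0.748), and no fold is given. MiR-182-5p was well above background on 0 of the 2D and 3 of the lr-ECM 3D arrays, with an adjusted p of 0.0522 in limma, and its lr-ECM 3D mean of 4.22 was under the mean 2D limit of 5.26, so no fold is given.

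Of 6 blood cell miRNAs, miR-142a-3p, which is typical of leukocytes, was well above background on all 6 arrays, with a mean log2 signal of 8.36 ± 0.52 (SD, n = 3) in 2D that compared with 7.90 ± 0.05 (SD, n = 3) in lr-ECM 3D. Its change of -0.45 had an adjusted p of 0.333 in limma. Of the rest, 4 were detected on 0 arrays, among them miR-223-3p and miR-451a, and the summed signal of the list was 280 to 544 in 2D and 259 to 276 in lr-ECM 3D. Both endothelial miRNAs (miR-126a-3p and miR-126a-5p) were detected on 0 arrays, with sums of 8.07 to 22.9 in 2D and 9.51 to 11.4 in lr-ECM 3D. Of 3 muscle miRNAs 2 were detected on 0 arrays, and miR-206-3p on 1, with sums of 14.2 to 68.6 in 2D and 15.1 to 15.3 in lr-ECM 3D. Each sum adds linear signals of different probes, so the brightest miRNA of a list weighs most. In 2D this was miR-125b-5p (mean log2 signal 10.5) for the mesenchymal list and miR-142a-3p (8.36) for the blood cell list. The mesenchymal and blood cell sums were lower on the lr-ECM 3D arrays without overlap, as were 37.5% of the 48 miRNAs detected everywhere. That direction rests on the scaling, since the median change of those 48 was -0.27 as reported, 0.58 with the deposited values and 1.08 without scaling. The part of these lists in the result was not tested.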

How the data were processed

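MiRNA was measured on 6 Agilent mouse miRNA arrays, 1 per culture, with groups taken from the sample titles. Spot intensities (linear scale) in the deposited scanner output were extracted by the authors with Agilent Feature Extraction 10.7.3.1 per the submitters' processing notes, after background subtraction and with no normalization between arrays. Other deposited columns flag outlier, saturated and detected spots. A further deposited table by the authors is on a log2 scale, which was inferred from its values: up to 0.0487, each column was log2 of the floored intensities shifted by 1 constant, and column medians ran from -0.04 to 0.82. All its column means were 1.79, so arrays share a mean on that scale, and the reason for its level is not given in the sources used here.

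Control spots and 190 to 369 outlier spots per array were left out, 0 spots were saturated, and spots of a probe were averaged. Arrays were multiplied by 1.04, 4.43 and 0.552 (2D) and 0.447, 0.575 and 0.589 (lr-ECM 3D), which set the mean over 1712 miRNA probes to that of the 2D arrays. After a floor of 1, log2 was taken, and the probe with the highest mean stood for each miRNA. Detection required the scanner's flag on at least 50% of a probe's spots. The 120 mouse miRNAs detected on every array of 1 condition or both entered a two-sided limma 3.58.1 fit (R 4.3.3), and p-values were adjusted over all of them by Benjamini-Hochberg. Calls had an adjusted p under 0.05 together with a fold of at least 2. Ratios of a pair of members within an array were compared between groups with an exact two-sided permutation test. Precision is limited by having 3 arrays a group. The fit was tested on simulated data with equal spread in both groups, whereas the spread of the tested members was larger in 2D.

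The text names every miRNA whose name starts with miR-199a, miR-199b or miR-214, miRNAs with the same seed, the 3 tested miRNAs most alike in pattern to each member, and fixed lists of cell type miRNAs. The members and lists were chosen with earlier results of these data known. Alternatives covered scaling, background correction (normexp with an offset of 50, on median pixel signals), probe summary, floor, deposited values, filter, left-out arrays, the replicate number as a block and the methods' t-test. Scaling to the median of the miRNAs detected on all arrays was added after seeing the data. Sequences and gene neighbours were taken from RefSeq tables of mouse assembly GRCm38.p6.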

Additional observations from a re-analysis of the deposited data

How the results depend on the processing

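Under every alternative 0 members were called. The changes of miR-199a-3p, miR-199a-5p, miR-199b-5p and miR-214-3p turned positive with the deposited values (0.34, 0.47, 0.41 and 0.50), without scaling (0.85, 0.98, 0.92 and 1.00) and with normexp (0.42, 0.40, 0.34 and 0.26); the median of all miRNAs moved as well. MiR-214-3p passed 0.05 with quantile normalization (-0.40, adjusted p of 0.0317 in limma) and by the methods' t-test unadjusted (-0.36), each under the fold limit. Leaving out an array gave changes of -0.71 to -0.25, -0.48 to -0.21, -0.59 to -0.27 and -0.42 to -0.26, in that order. The differences in ratio turned sign with normexp for miR-199a-3p over miR-199a-5p (0.0194), miR-199b-5p (0.0808) and miR-214-3p (0.17), miR-199a-5p over miR-214-3p (0.15) and miR-199b-5p over miR-214-3p (0.0858). With quantile normalization they turned for miR-199a-3p over miR-199b-5p (0.10) and miR-214-3p (0.21), and for miR-199a-5p (0.22) and miR-199b-5p (0.11) over miR-214-3p. With an array left out they ran from -0.26 to -0.0387 and -0.12 to 0.0234 for miR-199a-3p over miR-199a-5p and over miR-199b-5p, -0.29 to 0.0185 for miR-199a-3p over miR-214-3p, -0.0292 to 0.14 for miR-199a-5p over miR-199b-5p, and -0.0986 to 0.0571 and -0.17 to -0.00492 for miR-199a-5p and miR-199b-5p over miR-214-3p. The number of all miRNAs called, 14, became 24 with the 75th percentile over all probes, 26 each with the deposited values, without scaling and with total gene signal, 32 with no filter, 0 over the 48 miRNAs detected on all arrays, and 12 to 31 with an array left out, highest without 2D replicate 2. Correlations of deviations by replicate number were -0.32, -0.37 and 0.16, which with 3 arrays a group cannot settle whether the arrays were paired. With the replicate number as a block 12 miRNAs and 0 members were called, with adjusted p of 0.239 to 0.265 in limma for the members. The cause of these shifts was not tested. Detection on 2D replicate 2 limits what can be said of dim arms such as miR-214-5p.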
